A study of Rattus norvegicus with 36 samples.

Results

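Expression of 9 genes of bile acid synthesis, conjugation and transport was followed in the liver of rats given TBBPA-DBPE, a brominated flame retardant derived from tetrabromobisphenol A. The genes are Cyp7a1, Cyp8b1, Cyp27a1, Cyp7b1, Akr1d1, Slc27a5, Baat, Slc10a1 and Abcb11, chosen by their role in the pathway, and all 9 were found among the 14217 genes that have a probe set annotated to exactly 1 gene. Each has 1 such probe set except Akr1d1, so that 10 probe sets cover the 9 genes, and Akr1d1 is given by the brighter of its pair. The animals were male Harlan Sprague Dawley rats, 7 weeks old at the start. They were gavaged for 5 days in a row with corn oil alone (vehicle) or with TBBPA-DBPE in corn oil, at 943 mg/kg or at a lower dose of 94.3, 9.4, 0.94 or 0.1 mg/kg, and the left liver lobe was taken the day after the last dose. Each of the 6 groups held 6 animals with 1 Affymetrix array per animal, 36 arrays in all, and no gene was altered in any group. Values are log2 expression per probe set after RMA normalization, so a difference of 1 is a doubling of the fluorescence summary, and p-values measure the spread between these animals. Because whole lobe tissue was used, fewer cells of a type and less RNA per cell cannot be told apart.

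Bile acids are made from cholesterol in hepatocytes. Cyp7a1, the cholesterol 7α-hydroxylase, starts the classic route and sets its rate, Cyp8b1 adds the 12α-hydroxyl group that makes cholic acid, and Akr1d1 reduces the steroid ring. Cyp27a1 oxidises the side chain and opens the alternative route, in which Cyp7b1 is the 7α-hydroxylase. Slc27a5 couples bile acids to coenzyme A and Baat joins them to taurine or glycine. Slc10a1 (NTCP) takes bile acids up from the blood at the sinusoidal membrane and Abcb11 (BSEP) exports them into the canaliculus. Transcription of Cyp7a1 is known to be repressed when bile acids return to the liver, through the nuclear receptor Nr1h4 (FXR) and its target Nr0b2 (SHP).

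RefSeq windows of the 250 bases before 1 annotated transcript start per gene, on the rat build GRCr8, were at hand for Cyp8b1, Cyp27a1, Baat, Slc27a5 and Slc10a1, and Cyp7a1, Cyp7b1, Akr1d1 and Abcb11 are named only. The start used for Cyp27a1 is not the first of the gene, so its window lies inside the gene's annotated span. Those of Cyp8b1, the member with the lowest unadjusted p for the mean of the doses against vehicle, and of Cyp27a1 and Slc27a5, whose levels moved together between animals, are shown 5′ to 3′ on the gene's strand. Capitals mark a match to CAAGGTC, an extended nuclear receptor half-site, in either orientation.
Cyp8b1 (chr8:130457593-130457842, minus strand): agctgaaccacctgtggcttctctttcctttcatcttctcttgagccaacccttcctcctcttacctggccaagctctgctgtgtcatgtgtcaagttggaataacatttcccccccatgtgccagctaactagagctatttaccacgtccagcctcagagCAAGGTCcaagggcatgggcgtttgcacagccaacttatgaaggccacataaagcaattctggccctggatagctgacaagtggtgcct
Cyp27a1 (chr9:83713282-83713531, plus strand): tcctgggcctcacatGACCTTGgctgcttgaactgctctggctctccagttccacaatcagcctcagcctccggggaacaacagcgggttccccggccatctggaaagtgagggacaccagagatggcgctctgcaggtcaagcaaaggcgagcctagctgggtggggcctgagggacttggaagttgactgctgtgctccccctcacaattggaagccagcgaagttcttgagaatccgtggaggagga
Slc27a5 (chr1:82699336-82699585, minus strand): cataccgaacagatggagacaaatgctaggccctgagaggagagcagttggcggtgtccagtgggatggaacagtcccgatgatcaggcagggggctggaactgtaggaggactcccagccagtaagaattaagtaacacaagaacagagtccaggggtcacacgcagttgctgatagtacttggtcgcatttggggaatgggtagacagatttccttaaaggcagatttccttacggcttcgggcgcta
CAAGGTC was searched on both strands and was present in 2 of the 5 windows, 89 to 83 bases before the start of Cyp8b1 and, as its reverse complement, 235 to 229 bases before the start used for Cyp27a1. It occurred in 1208 of 33469 rat promoter windows of this length (3.61%). CAAAGTCCA, a core sequence bound by HNF4 proteins, was searched the same way and was present in 1 of the 5, that of Baat, against 0.338% of all windows. The Slc27a5 and Slc10a1 windows held neither. Such a match is a description of the letters.

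Both dose response and variation between animals were examined, and the question put by the design is how expression in the liver changes with dose. None of the 9 genes passed the test at any dose. In a limma model over all 36 arrays, with Benjamini-Hochberg adjustment over 31042 probe sets and a threshold of 0.05, 0 of 9 passed against vehicle at each of the 5 doses, beside 0% of all probe sets at each. The count of members was also 0 for 943 against 94.3 mg/kg, for the mean of the 5 doses, for the F test over the doses and for a slope over dose rank, again beside 0% of all probe sets in each. At an unadjusted p under 0.05, the members counted 0, 1, 2, 1 and 0 with rising dose. The corresponding shares of all probe sets were 5.62%, 4.16%, 4.85%, 6.9% and 5.74%, or 1744, 1292, 1506, 2142 and 1782 probe sets. Of the members, 0 reached it for 943 against 94.3 mg/kg (5.7% of all probe sets) and 0 in the F test (5.35%), while 1, Cyp8b1, did for the mean of the 5 doses (5.54%) and 2, Cyp7b1 and Baat, did in the slope over dose rank (5.68%).

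Small differences below vehicle were the more frequent direction among the members. With rising dose, 7, 6, 8, 6 and 7 of the 9 genes had a lower mean than vehicle, while among all probe sets 50.1%, 50.8%, 52.9%, 48.4% and 50.3% did. The median difference of the members was -0.036, -0.0095, -0.063, -0.072 and -0.086 in the order of rising dose. Over all probe sets the medians were -0.00028, -0.0018, -0.0060, 0.0034 and -0.00078. The 5 comparisons share the same vehicle animals, so these counts are not independent of each other. Nor are the 9 genes independent within a count, since levels of some moved together between animals, as given below.

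**Figure D1:**
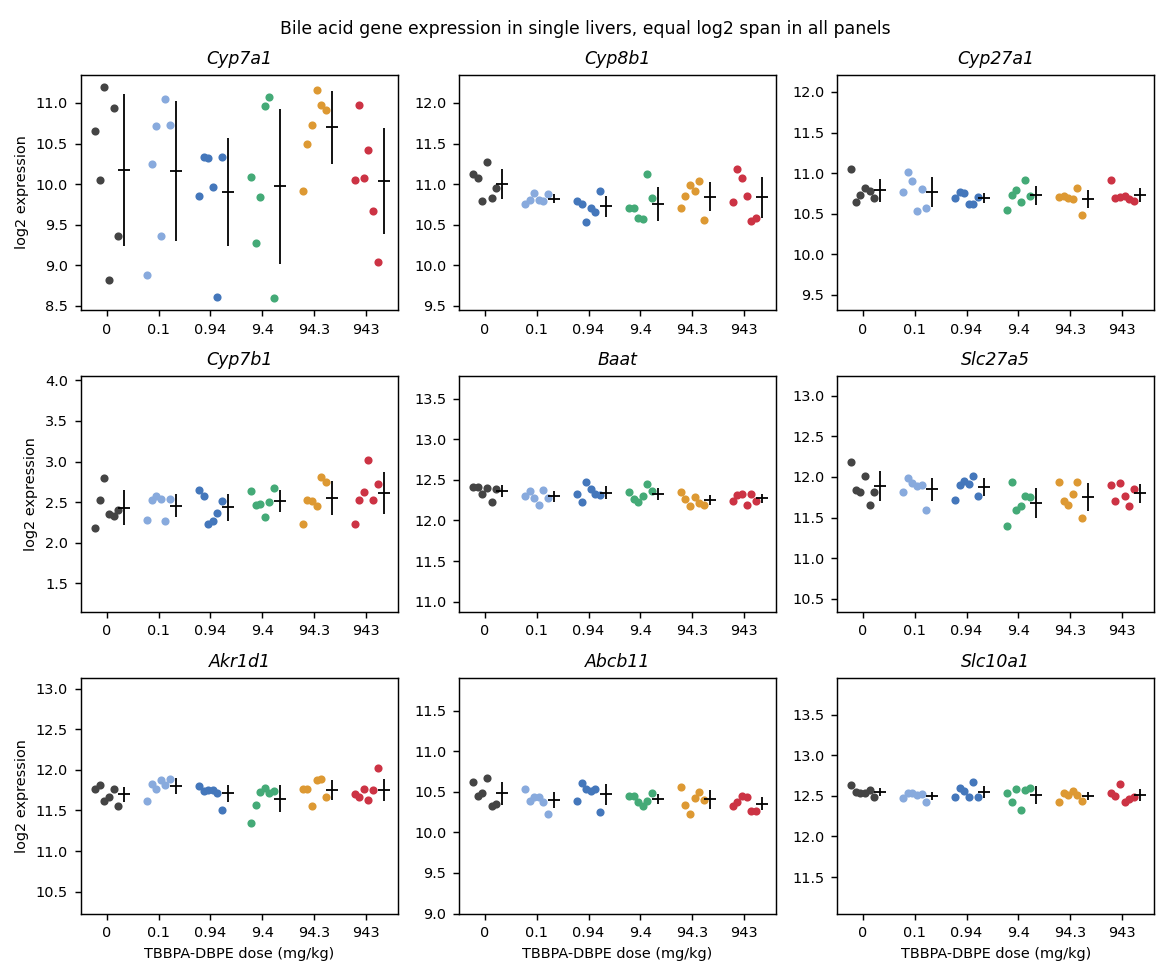
Log2 expression of the 9 genes (vertical axes, each spanning the same number of log2 units) in single animals by TBBPA-DBPE dose in mg/kg, with 0 for vehicle; points are animals, and bars are the group mean ± SD of 6 animals. Cyp7a1 ranged from 8.60 to 11.20 and overlapped between all groups, while the points of Baat and Slc10a1 lie close together.

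Cyp7a1, the rate-limiting enzyme, varied far more between animals of one group than between groups. In vehicle animals its log2 value had a lowest, median and highest of 8.82, 10.35 and 11.20. The values were 8.88, 10.48 and 11.05 at 0.1 mg/kg, 8.61, 10.14 and 10.34 at 0.94 mg/kg, and 8.60, 9.97 and 11.07 at 9.4 mg/kg. Each of these groups thus held at least 1 animal near the bottom of the gene's range, and all but the 0.94 mg/kg group also held animals near its top. At 94.3 mg/kg the values were 9.91, 10.82 and 11.16, and at 943 mg/kg 9.04, 10.07 and 10.97. The 94.3 mg/kg group lacked the low animals seen elsewhere, with 5 of 6 above the vehicle mean and 0 above the highest vehicle animal, and each dose group overlapped vehicle.

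The mean difference of Cyp7a1 from vehicle was 0.53 ± 0.41 (SE, n = 6 per group) at 94.3 mg/kg, or 1.44-fold, with a 95% interval from -0.31 to 1.37. Over the alternative settings that difference ran from 0.26, without vehicle replicate 4, the lowest vehicle animal, to 0.74. The difference was -0.0087 for the 0.1 mg/kg group, where a second quantile normalization turned it to 0.000407. For the 0.94, 9.4 and 943 mg/kg groups it was -0.27, -0.20 and -0.13. The 95% interval of the last ran from -0.97 to 0.71, so differences within those bounds could not be told apart with 6 animals a group. Leaving out vehicle replicate 3, vehicle replicate 5 or replicate 6 at 943 mg/kg turned that difference positive, to 0.075, 0.023 and 0.068. Between the highest doses, 943 and 94.3 mg/kg, it differed by -0.66 (95% interval -1.50 to 0.18). None of these differences passed in the limma fit, where the F test over the doses gave an adjusted p of 0.951.

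Cyp8b1, the 12α-hydroxylase, had the most even displacement from vehicle. Its lowest, median and highest log2 values were 10.79, 11.01 and 11.27 in vehicle, 10.76, 10.80 and 10.89 at 0.1 mg/kg, and 10.53, 10.73 and 10.91 at 0.94 mg/kg. They were 10.57, 10.71 and 11.13 at 9.4 mg/kg, 10.56, 10.88 and 11.04 at 94.3 mg/kg, and 10.55, 10.81 and 11.19 at 943 mg/kg. All groups overlapped vehicle, and at 0.94 mg/kg 5 of 6 animals lay below the lowest vehicle animal. With rising dose, 6, 6, 5, 5 and 4 of 6 animals lay below the vehicle mean. In the order of rising dose its differences from vehicle were -0.18, -0.28, -0.25, -0.16 and -0.17, each with an SE of 0.10 (n = 6 per group). Leaving out single animals, done for the 0.94 and 943 mg/kg groups, moved the former between -0.32 and -0.23 and the latter between -0.24 and -0.11 (without replicate 5 at 943 mg/kg).

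For Cyp8b1 the mean of the 5 doses was 0.21 log2 units under vehicle (-0.21 ± 0.078, 95% interval -0.37 to -0.051). In the limma fit its unadjusted p was 0.011 and its adjusted p 0.851, and 5.54% of all probe sets had an unadjusted p under 0.05 in that comparison. At 0.94 mg/kg the unadjusted p was 0.0083 and the adjusted p 0.999, and at 9.4 mg/kg they were 0.017 and 0.98. The displacement did not grow over the dose range, with a slope of -0.021 ± 0.018 per dose rank (adjusted p of 0.914).

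**Figure D2:**
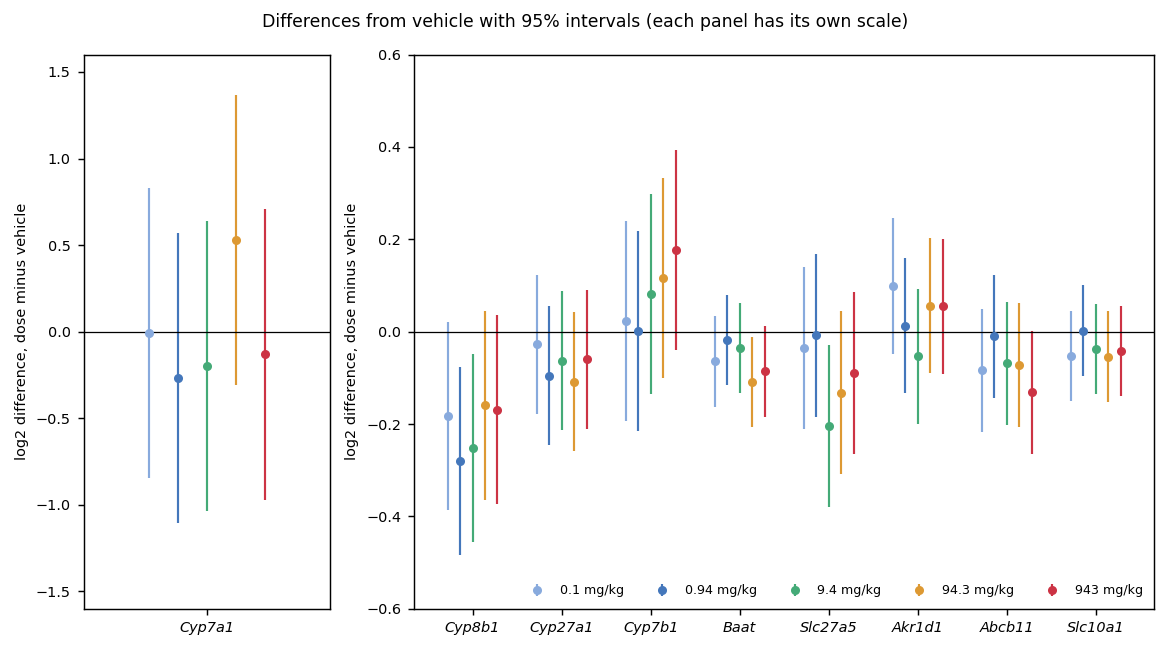
Log2 difference from vehicle (vertical axes, with a separate scale for Cyp7a1) for each of 9 genes at 5 doses, from the limma fit; points are differences of means of 6 animals each and bars are 95% intervals. Cyp8b1 lies below 0 at every dose, at -0.28 at 0.94 mg/kg, and the interval of Cyp7a1 at 94.3 mg/kg runs from -0.31 to 1.37.

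Neither Cyp27a1 nor Akr1d1 passed at any dose. Cyp27a1, a mitochondrial sterol hydroxylase, had a vehicle range from 10.65 to 11.06 around a median of 10.75, and a range from 10.66 to 10.91 around 10.70 at 943 mg/kg. Its groups overlapped throughout, and its differences lay between -0.11 at 94.3 mg/kg and -0.027 at 0.1 mg/kg. At 943 mg/kg the Cyp27a1 difference was -0.060, and over the alternative settings it ran from -0.096 to -0.0069 (without vehicle replicate 1). Akr1d1, the 5β-reductase, ran from 11.56 to 11.81 with a median of 11.71 in vehicle and from 11.63 to 12.02 with a median of 11.73 at 943 mg/kg. Its difference was 0.099 ± 0.072 at 0.1 mg/kg, where 3 of 6 animals lay above the highest vehicle animal, and -0.054 at 9.4 mg/kg. A second probe set of Akr1d1 had the opposite sign at 0.94, 9.4 and 94.3 mg/kg, with differences of -0.065, 0.054 and -0.19 and an SE of 0.19, so the gene has no settled direction there.

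Cyp7b1, the 7α-hydroxylase of the alternative route, was read by a dim probe set. Its mean over the 36 arrays was 2.50, below the median of every array, of which the lowest was 4.59, so its values may not reflect the transcript. The vehicle values ran from 2.18 to 2.80 and those at 943 mg/kg from 2.23 to 3.02. The difference at 943 mg/kg was 0.18 ± 0.11, and over the alternative settings it ran from 0.094 (without replicate 4 of that group) to 0.25. Its slope over dose rank was 0.035 ± 0.017 (limma, unadjusted p 0.047, adjusted p 0.875), and 5.68% of all probe sets reached an unadjusted p under 0.05 in that test.

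The conjugating enzymes were lower than vehicle in the mean at every dose, by amounts that did not pass, and with array weights Slc27a5 turned to 0.019 at 0.94 mg/kg. Slc27a5, the bile acid-CoA synthetase, had a lowest, median and highest value of 11.65, 11.83 and 12.18 in vehicle and of 11.40, 11.70 and 11.94 at 9.4 mg/kg. There 3 of 6 animals lay below the lowest vehicle animal, the groups overlapped, and the difference was -0.20 ± 0.087 (limma, unadjusted p 0.024, adjusted p 0.98). At 943 mg/kg its difference was -0.090, and leaving out single animals moved it between -0.137 (vehicle replicate 5) and -0.032 (vehicle replicate 1). Baat, the amino acid N-acyltransferase, had values of 12.23, 12.39 and 12.41 in vehicle and of 12.18, 12.25 and 12.35 at 94.3 mg/kg.

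All 6 animals at 94.3 mg/kg, and all 6 at 943 mg/kg, lay below the vehicle mean of Baat, and both groups overlapped vehicle. The Baat difference was -0.11 ± 0.048 at 94.3 mg/kg (95% interval -0.21 to -0.011; limma, unadjusted p 0.030, adjusted p 0.657) and -0.086 at 943 mg/kg. Its slope over dose rank was -0.017 ± 0.0081 (unadjusted p 0.047, adjusted p 0.875). For these enzymes the 95% intervals at 943 mg/kg, from -0.27 to 0.086 for Slc27a5 and from -0.18 to 0.012 for Baat, hold no doubling and no halving of expression.

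The transporters gave equally narrow intervals. Slc10a1, the uptake carrier, had values of 12.49, 12.54 and 12.63 in vehicle and of 12.43, 12.49 and 12.64 at 943 mg/kg, so that the 943 mg/kg range held the whole vehicle range. Its differences lay between -0.054 at 94.3 mg/kg (-0.034 after a second quantile normalization) and 0.0023 at 0.94 mg/kg, each with an SE of 0.048. Abcb11, the canalicular export pump, had values of 10.32, 10.47 and 10.67 in vehicle and of 10.26, 10.36 and 10.45 at 943 mg/kg. All 6 animals at 943 mg/kg lay below its vehicle mean and 2 lay below the lowest vehicle animal. The Abcb11 difference was -0.13 ± 0.066 (95% interval -0.26 to 0.0025; limma, adjusted p 0.868), and at the lower doses it lay between -0.084 and -0.0095, the latter turning to 0.000241 with array weights.

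The members differed from each other chiefly in how much they varied between animals of one group. The SD within groups, pooled over the 6 groups, was 0.774 log2 units for Cyp7a1, the 49th highest of 14217 genes, while the median gene had 0.139. Among the 9641 genes above every array median in their mean it ranked 44th. Its SD within a group ran from 0.447 at 94.3 mg/kg to 0.956 at 9.4 mg/kg, with 0.936 in vehicle, so the wide spread was present without the compound. From median absolute deviations, which weigh outer animals less, its spread was 0.491, and that of Cyp27a1, Akr1d1 and Baat was 0.0724, 0.0888 and 0.058. Between the lowest and the highest of the 36 animals lay a 6.05-fold difference.

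No other member came near that spread. Cyp8b1, next to Cyp7a1 in the classic route, had a pooled SD of 0.18, above 77.8% of genes, and its SD was 0.05 at 0.1 mg/kg and 0.255 at 943 mg/kg. Slc27a5 had 0.153, Cyp27a1 0.127, Akr1d1 0.123 and Abcb11 0.109, and the dim Cyp7b1 0.192. Baat and Slc10a1 were the steadiest members at 0.0699 each, with 2.60% of genes lower than either. That share is over genes of all levels, and genes as bright as these lay on both sides. Near the level of Baat, Serpind1 had 0.0635 and F9 0.0862, and near that of Slc10a1, C4bpa had 0.0630 and Ldha 0.0981. Over all 36 animals the highest value was 1.22-fold the lowest for Baat and 1.27-fold for Slc10a1.

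**Figure D3:**
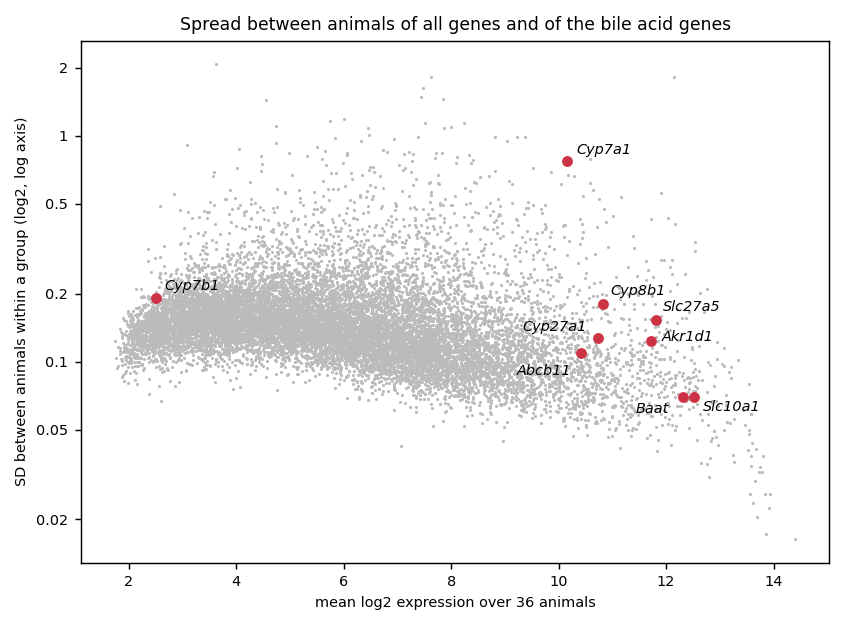
SD between animals within a group, pooled over 6 groups (vertical axis, log scale, in log2 units), against mean log2 expression over 36 animals (horizontal axis) for 14217 genes in grey and the 9 bile acid genes in red. Cyp7a1 stands at 0.774, above nearly all genes of its level. Baat and Slc10a1 stand at 0.0699, low among genes of all levels but with genes of their own level on both sides.

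Levels of the members were next compared between animals after the group means had been removed. Of 36 pairs of members 26 had a positive Pearson correlation over the 36 animals, with a median r of 0.12. Over all genes, the median r with a member lay between -0.023 (Slc10a1) and 0.036 (Cyp7a1). The 95th percentile lay between 0.27 (Cyp8b1) and 0.40 (Cyp27a1). The share of all gene pairs that would pass was not computed. After adjustment over the 36 pairs of members 2 passed, both with the conjugating enzyme Slc27a5. Its r with the export pump Abcb11 was 0.593 (permutation p 0.00043, adjusted 0.0104). Spearman's rho was 0.613 (permutation p 0.00041, adjusted 0.0148), and r was 0.692 without the 2 animals farthest from the median of Slc27a5. The sign was positive within 6 of 6 groups, with r from 0.14 to 0.87. The first principal component of the arrays, group means removed, had an r of -0.394 with Slc27a5 and -0.373 with Abcb11. Its part in this pair was not tested.

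The r of Slc27a5 with Cyp27a1, the mitochondrial side chain oxidase, was 0.595 (permutation p 0.00058, adjusted 0.0104). That relation rested in part on the outer animals. Spearman's rho was 0.504 (permutation p 0.0035, adjusted 0.0623), and r was 0.504 without the 2 animals farthest from the median of Cyp27a1 (adjusted p 0.119). It was positive within 5 of 6 groups and -0.31 at 0.94 mg/kg. Their CAAGGTC content differs, as printed above, with 1 match in the Cyp27a1 window and 0 in that of Slc27a5. Array medians moved against both genes, with r of -0.413 for Slc27a5 and -0.464 for Cyp27a1. With each array centred on its median the correlation was 0.635 (adjusted permutation p 0.00378). Centring subtracts the same median from both genes, which by itself raises r here. That setting therefore cannot show whether the relation is apart from array level, and the part of array level was not tested.

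Cyp7a1 was not shown to move with any other member. Its r with Cyp8b1, which shares the classic route, was 0.14 (permutation p 0.438, adjusted 0.717; rho 0.16, permutation p 0.39, adjusted 0.583), and within groups it ran from -0.73 in vehicle to 0.83 at 943 mg/kg. Its r with Abcb11 was -0.28 (permutation p 0.115, adjusted 0.364; rho -0.19, permutation p 0.295, adjusted 0.579). Without the 2 animals farthest from the median of Cyp7a1, r was 0.30 with Cyp8b1 and -0.16 with Abcb11. The most negative pair was the dim Cyp7b1 probe set, whose values may not reflect the transcript, with Baat, at -0.39 (permutation p 0.0239, adjusted 0.249; rho -0.42, permutation p 0.0181, adjusted 0.177).

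**Figure D4:**
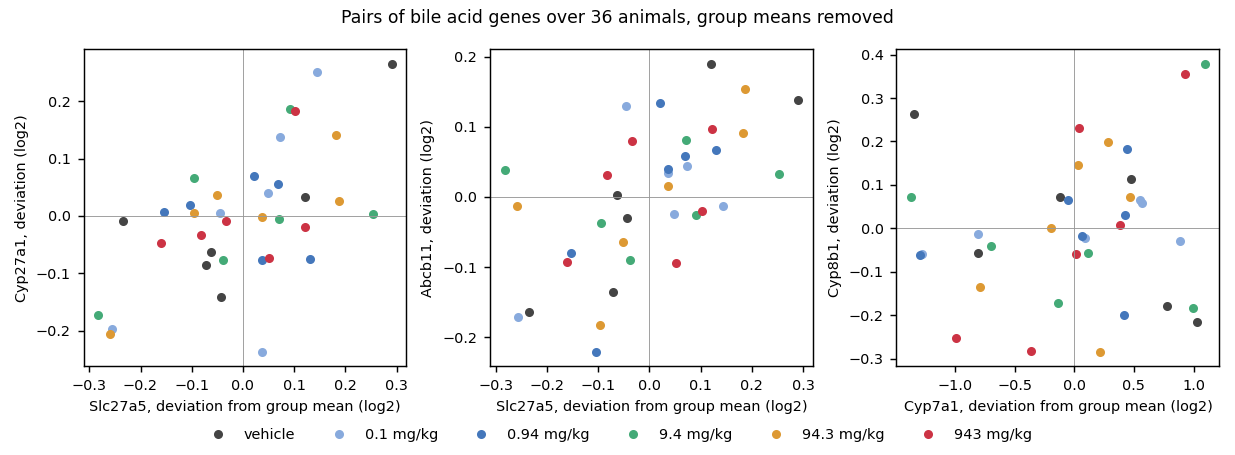
Deviations from the group mean in log2 units for Cyp27a1 against Slc27a5, Abcb11 against Slc27a5 and Cyp8b1 against Cyp7a1, with 1 point per animal for 36 animals, coloured by dose. The Slc27a5 panels slope upward with r of 0.595 and 0.593, and the Cyp7a1 panel, with r of 0.14, shows no clear slope.

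Genes outside the set that followed a member between animals were sought with a limma slope over the member's level, group means included, across 31041 probe sets. This comparison was added after the data had been seen. With Cyp7a1, 36 probe sets passed at an adjusted p under 0.05 (0.116%), of which 7 rose (0.0226%) and 29 fell (0.0934%). The genes most like Cyp7a1 by r were Smyd5 (0.705), Stbd1, a glycogen-binding protein (0.690), and Tssc4 (0.668). Those most opposed were Zbtb1 (-0.706), the zinc exporter Slc30a1 (-0.696) and the transcriptional repressor Erf (-0.693). Stbd1 rose by 0.28 ± 0.052 per log2 unit of Cyp7a1 (adjusted p 0.0211) and Zbtb1 fell by 0.20 ± 0.036 (adjusted p 0.0211).

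The number of calls with Cyp7a1 changed when its lowest animals were left out, and no other animal was left out in turn. Without replicate 6 at 9.4 mg/kg, whose Cyp7a1 value was 8.60, 2 probe sets passed, without replicate 5 at 0.94 mg/kg 10 passed, and without both 0 did. By r, Stbd1 stood at 0.66 and Zbtb1 at -0.66 without the 2 animals whose Cyp7a1 deviated most once group means were removed. The mean of 8 hepatocyte markers had an r of -0.466 with Cyp7a1, with 8 of 8 markers negative, and the first principal component of the arrays one of 0.426, as descriptions without a test. The mean level of those markers ran from 13.40 to 13.54 over the animals, and their part in these slopes was not tested.

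Slc27a5 was followed by 4 probe sets, all rising with it (0.0129%). They read the autophagy protein Gabarapl1 (r 0.741), Selenbp1 (r 0.732), Nr1i3 (r 0.726) and Acsm5, the last named after its values were seen. Nr1i3, the constitutive androstane receptor CAR, which governs many drug-metabolising genes, rose by 2.26 ± 0.37 per log2 unit of Slc27a5 (limma, adjusted p 0.0122). Without vehicle replicate 1, 0 probe sets passed, without replicate 1 at 9.4 mg/kg 11 did, and without both 0 did.

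Abcb11 was followed by 23 probe sets (0.0741%), of which 18 rose (0.058%) and 5 fell (0.0161%). First among them was Slco1a4, another bile acid and organic anion carrier of the sinusoidal membrane, with an r of 0.768 and a slope of 1.12 ± 0.18 (limma, adjusted p 0.00686). Pkp4, with r 0.728, and the phospholipid flippase Atp11a, with r 0.714, were next by likeness. Among the falling probe sets were those of Lamtor4, Paqr9, Slc35b1 and Dnajc22, named after their values were seen. Without vehicle replicate 4, 5 probe sets passed, without replicate 6 at 0.1 mg/kg 12 did, and 1 passed without both. Slc10a1 was followed by 4 rising probe sets (0.0129%), among them those of Kng2l1 (r 0.760), Ccni (r 0.744) and, named after its values were seen, C1qbp. For Slc10a1, 1 passed without replicate 4 at 9.4 mg/kg, 6 without replicate 5 at 0.94 mg/kg and 2 without both.

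For the remaining members 0 probe sets passed in the limma slope, or 0%, while 1136 for Cyp8b1, 3280 for Cyp27a1, 3146 for Cyp7b1, 2165 for Baat and 1483 for Akr1d1 had an unadjusted p under 0.05. Without replicate 2 at 0.1 mg/kg 2 probe sets passed for Cyp27a1, and without replicate 5 at 9.4 mg/kg 1 did for Baat. The genes most like Cyp8b1 by r were Tsc22d4 (0.634), the alanine aminotransferase Gpt2 (0.606) and Ccdc107 (0.604), and those most opposed were Reck (-0.629), the chemokine Cxcl13 (-0.579) and Aldh1l2 (-0.562). Baat was most like the retinol dehydrogenase Rdh10 (0.679) and the steroid dehydrogenase Hsd3b5 (0.641), and Akr1d1 most like the glutathione transferase Gsta1 (0.692). Naa60 (0.723) and Mccc1 (0.697) were closest to Cyp27a1. All these are r over 36 animals with group means removed, given as descriptions.

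Genes of the other steps of the pathway gave no call under dosing either. Of 12 measured genes among 13 listed for other steps of synthesis, 0 passed at any dose, and 9 of 12 were lower than vehicle at 943 mg/kg with a median difference of -0.031. The smallest F test p among them were those of Amacr, an alpha-methylacyl-CoA racemase (0.158), and the peroxisomal enzyme Hsd17b4 (0.179), which differed by -0.053 and -0.17 at 943 mg/kg. Of 13 measured genes among 14 listed for other bile acid and bile lipid transport, 0 passed, and 8 were lower at 943 mg/kg with a median of -0.0017. The smallest F test p there was 0.044, that of Abcc2 (MRP2), an export pump for conjugated anions, with a difference of -0.19 at 943 mg/kg and an adjusted p of 0.918.

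Among regulators of bile acid synthesis the count was 0 of 17 measured among 20 listed. Nr0b2 (SHP), which represses Cyp7a1, is named with Nr1h4 (FXR) for its role after the values were seen. With rising dose Nr0b2 differed by -0.20, -0.21, 0.0062, 0.063 and 0.34, with an F test p of 0.585 and an adjusted p of 0.961. Nr1h4 differed by -0.031 at 943 mg/kg. Hnf4a is a hepatocyte nuclear receptor that activates Cyp7a1 and Cyp8b1. Hnf4a had differences of 0.29 and -0.015 in the 94.3 and 943 mg/kg groups, with an F test p of 0.023 and an adjusted p of 0.918. Its r with Cyp7a1 between animals was 0.38, and that of Cebpb -0.42. Both are descriptions, since 0 of the 17 passed in the slope over Cyp7a1 or over Cyp8b1.

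Clock genes were listed because Cyp7a1 is known as a rhythmic transcript in rodent liver. Of 15 measured among 18 listed, 0 passed at any dose and 0 in the slope over Cyp7a1. The smallest F test p was 0.023, that of Nr1d1 (Rev-erb alpha), a nuclear receptor of the clock, with differences of -0.25, 0.13, -0.28, -0.12 and -0.23 with rising dose and an adjusted p of 0.918. Bhlhe40, a repressor within the clock, had differences of -1.15 and -0.81 in the 94.3 and 943 mg/kg groups, with an F test p of 0.056. The r with Cyp7a1 was -0.484 for Clock and -0.42 for Npas2, which encode partners of Bmal1, and 0.063 for Bmal1 itself. Listed genes outside the regulators and the clock also reached such r with Cyp7a1, as Hsd17b4 did at -0.453. Among the endothelium markers, named after their values were seen, Lyve1 stood at 0.543 and Kdr at -0.405. Genes of cholesterol supply, the substrate route, numbered 6 measured of 10 listed, and 0 passed. Their median differences were 0.36 and 0.34 in the 94.3 and 943 mg/kg groups, with 0 lower at 943 mg/kg. The smallest F test p were those of Lss (0.017), the lanosterol synthase, and Sqle (0.020), the squalene epoxidase, which differed by 0.45 and 0.68 at 94.3 mg/kg (adjusted p 0.916 and 0.918). Their r with Cyp7a1 was 0.16 and 0.040.

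**Figure D5:**
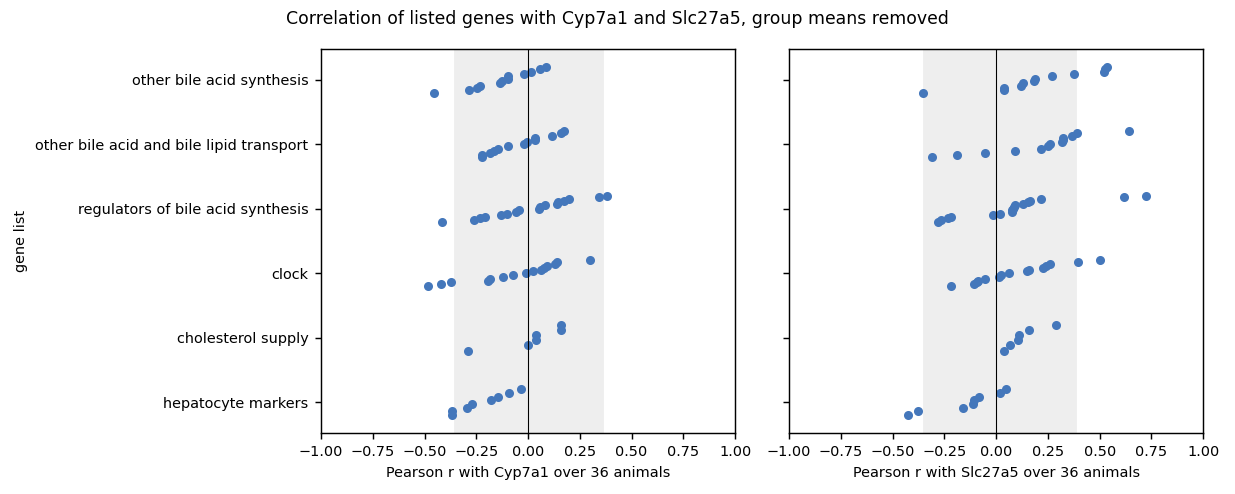
Pearson r over 36 animals, group means removed (horizontal axes), of the genes of 6 lists (rows) with Cyp7a1 on the left and with Slc27a5 on the right; each point is a gene, and the grey band runs from the 5th to the 95th percentile of r over all genes. Most listed genes lie within the band, and Nr1i3 with Slc27a5, at 0.726, is the point farthest to the right.

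Arrays correlated with each other between 0.989 and 0.997, and the defining hepatocyte markers of the labelled tissue were high on each. The mean of 8 hepatocyte markers lay between 13.40 and 13.54 on every array, while 4 of 5 pancreas and 3 of 5 gut epithelium markers were below the median of every array. Of the markers of cholangiocytes, Kupffer cells, stellate cells, endothelium and erythroid cells, with 6, 6, 7, 6 and 2 measured, 0 passed at any dose. Kupffer cell markers had a group median between 7.57 and 7.96, with 7.80 in vehicle and 7.66 at 943 mg/kg. The mean of the 2 erythroid markers had an r of -0.393 with Cyp8b1, -0.565 with Baat, -0.32 with Slc27a5 and -0.31 with Cyp27a1. It was positive with Cyp7a1 (0.045) and Cyp7b1 (0.19). The mean of stellate cell markers had an r of -0.31 with Cyp8b1, -0.31 with Slc27a5 and -0.30 with Baat, and 0.23 with Cyp7b1. That of Kupffer cell markers had an r of -0.35 with Cyp27a1 and -0.25 with Abcb11, and 0.36 with Cyp7b1. For endothelium markers r ran from -0.20 with Akr1d1 to 0.33 with Cyp7b1. The part of these cells in the levels of the members was not tested.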

How the data were processed

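Liver RNA of 36 rats was measured on 36 single-colour Affymetrix arrays. The deposited log2 values per probe set were made by the authors with RMA (affy), per the submitters' processing notes, and no version of either is given in those notes. The series matrix was used as deposited. After 57 array controls were set aside, 31042 probe sets were tested with no filter on signal. Genes were named from the platform annotation where it gives exactly 1 gene, and a gene was read by its brightest probe set.

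All arrays entered 1 limma model (version 3.58.1, R 4.3.3) with a mean per group, moderated standard errors and Benjamini-Hochberg adjustment within each comparison. Precision is limited by the 6 animals a group. Correlations used deviations from group means and 100000 permutations within groups (two-sided; smallest possible p 1e-05). Scripts were tested on simulated data. Replicate numbers were not treated as pairing animals in the main model. Over 90 pairs of arrays with the same number, deviations correlated at 0.0154 on average, from -0.27 to 0.29. Arrays of different groups and numbers gave a mean of -0.0030, and the difference was not tested. Named genes are the members and up to 4 per list with the smallest F test p or the largest r with Cyp7a1 or Cyp8b1. Up to 3 genes most alike each member, and the 3 most opposed to Cyp7a1 and to Cyp8b1, are named too. Serpind1, F9, C4bpa and Ldha are named for a level near Baat or Slc10a1 and an SD on either side. Other exceptions are marked in the text. Genes, lists and motifs were chosen with earlier results of these data known. Alternatives were other normalizations, median absolute deviations, weights, filters, a replicate block and leaving out animals.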

Additional observations from a re-analysis of the deposited data

Results flagged for a closer look

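In 54 combinations of gene and group, 4 animals stood apart from the other 5 by a gap of more than 0.625 of the group's range. Chance sets about 5% of groups apart in this way, or about 1 in 20. Cyp7a1 was 8.61 in replicate 5 at 0.94 mg/kg, with a gap of 0.717 of the range below the next animal. Cyp27a1 was 10.91 in replicate 1 at 943 mg/kg, the highest there, with a gap of 0.746. Akr1d1 was 11.50 in replicate 6 at 0.94 mg/kg, the lowest there, with a gap of 0.733, and 12.02 in replicate 6 at 943 mg/kg, the highest there, with a gap of 0.668.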

How the results depend on the processing

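None of the 9 members passed in any of 242 recomputed counts, each for 1 comparison by dose in 1 alternative setting. Where only the brighter probe sets were kept, the dim Cyp7b1 was not among those tested. Of the members' recomputed differences, 365 kept their direction while 12 turned. With array weights Cyp7a1 at 0.1 mg/kg became 0.062, Cyp7b1 -0.022 at 0.1 and -0.052 at 0.94 mg/kg, Slc27a5 0.019 and Abcb11 0.000241 at 0.94 mg/kg. Quantile normalization gave Cyp7a1 0.000407 at 0.1 mg/kg. The second Akr1d1 probe set gave -0.065, 0.054 and -0.19. Animals were left out for differences at 943 mg/kg and at the dose of a gene's smallest p, which moved Cyp7a1 at 943 mg/kg between -0.40 and 0.075. Over all probe sets, the slope over dose rank called 1 after quantile normalization and 0 to 1 without single animals (1 without vehicle replicate 4 or replicate 3 at 9.4 mg/kg). The calls ran from 0 to 1 at 9.4 mg/kg (1 without its replicate 3), and, without replicate 1 at 94.3 mg/kg, rose from 0 to 11 at 94.3 mg/kg and from 0 to 18 between 943 and 94.3 mg/kg. With the replicate block the calls stayed at 0 in all comparisons by dose. Pairs of members that passed numbered 1 with Spearman's rho and 1 without the 2 farthest animals. Centring arrays on their medians changed the slope calls to 17 for Cyp7a1, 13 for Slc27a5, 49 for Abcb11, 13 for Slc10a1 and 6 for Cyp27a1, and quantile normalization to 1 for Slc10a1. The causes were not tested.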
